A study of Rattus norvegicus with 8 samples.

Results

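10 genes of the matrix metalloproteinase family were followed in the outflow veins of rats with an arteriovenous fistula (AVF), chosen by name as Mmp2, Mmp3, Mmp9, Mmp12, Mmp13, Mmp14, Mmp15, Mmp17, Mmp19 and Mmp28. All 10 were found by gene name among the 32623 genes listed, and all 10 passed the filter that left 11682 genes for testing (a mean of at least 100 normalized counts over the 8 libraries). The files list 21 genes named Mmp, so these are 10 of the 21. In 8 Sprague Dawley rats the epigastric vein had been joined end to side to the femoral artery, and a bilayer nanofiber scaffold had been placed around the vein next to the anastomosis. The scaffold was loaded with β-aminopropionitrile (BAPN), which blocks the lysyl oxidases, the enzymes that crosslink fibrils of collagen and elastin, in the 4 rats of the BAPN group (BAPN 1 to 3 female, BAPN 4 male). It carried no drug in the 4 rats of the Vehicle group (Vehicle 1 and 2 female, Vehicle 3 and 4 male). Both groups therefore shared the fistula and the scaffold, and no vein without a fistula was compared. The age of the rats was not given in the sources used here, and all veins were taken at day 21. RNA of the whole vein was sequenced, so each value adds up all cell types in the wall.

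Matrix metalloproteinases are zinc-dependent endopeptidases that cleave collagens, elastin, proteoglycans and many cell surface proteins. Most are made as inactive proenzymes, are activated by other proteases at or near the cell surface, and are held in check by the tissue inhibitors of metalloproteinases (Timps). In a vein exposed to arterial flow they take part in the breakdown of the old matrix and in the migration of smooth muscle cells and fibroblasts. The members fall into 3 classes by their known roles. Mmp9 (gelatinase B) and Mmp12 (macrophage elastase) are mainly made by leukocytes and are called macrophage-type here. Mmp2 (gelatinase A), Mmp3 (stromelysin), Mmp13 (the interstitial collagenase of rodents), Mmp19 and Mmp28 (epilysin) are secreted and were set as stromal. Mmp14, Mmp15 and Mmp17 are membrane-type enzymes: Mmp14 cuts fibrillar collagen and activates pro-Mmp2, Mmp15 is its close relative, and Mmp17 is held by a lipid anchor. Transcripts were measured, and neither the activation nor the activity of any enzyme was.

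Upstream sequence was at hand in RefSeq (build GRCr8) for 5 of the 10 members. The 250 bases before the start of 4 of them are shown, since Mmp13, Mmp12 and Mmp3 are neighbours with the same sign of difference and Mmp28 had the largest difference that passed the test. Each is read 5′ to 3′ along the gene, and capitals mark matches on either strand to 3 motifs. The AP-1 motif was searched as TGANTCA. The TATA motif was searched as TATAAA. The GC box was searched as GGGCGG.
Mmp13, chr8:12782579-12782828, plus strand: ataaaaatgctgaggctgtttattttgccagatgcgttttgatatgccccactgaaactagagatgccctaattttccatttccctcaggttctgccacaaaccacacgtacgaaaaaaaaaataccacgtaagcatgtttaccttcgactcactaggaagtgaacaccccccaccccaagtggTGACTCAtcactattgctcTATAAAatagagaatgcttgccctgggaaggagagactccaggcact
Mmp12, chr8:12866402-12866651, plus strand: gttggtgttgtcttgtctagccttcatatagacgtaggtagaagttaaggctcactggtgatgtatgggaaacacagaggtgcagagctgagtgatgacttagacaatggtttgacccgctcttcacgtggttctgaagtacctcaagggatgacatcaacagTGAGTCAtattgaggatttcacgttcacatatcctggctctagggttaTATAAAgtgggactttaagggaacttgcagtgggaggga
Mmp3, chr8:12925031-12925280, plus strand: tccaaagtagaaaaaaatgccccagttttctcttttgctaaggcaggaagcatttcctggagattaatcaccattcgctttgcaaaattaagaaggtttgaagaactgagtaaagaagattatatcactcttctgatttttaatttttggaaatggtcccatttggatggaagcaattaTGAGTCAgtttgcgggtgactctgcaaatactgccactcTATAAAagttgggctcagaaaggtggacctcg
Mmp28, chr10:68762378-68762627, minus strand: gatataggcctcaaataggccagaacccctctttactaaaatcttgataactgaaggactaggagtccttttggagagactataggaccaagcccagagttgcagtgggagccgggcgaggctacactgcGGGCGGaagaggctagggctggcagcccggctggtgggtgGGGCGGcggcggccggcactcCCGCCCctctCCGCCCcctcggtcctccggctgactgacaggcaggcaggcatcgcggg
The AP-1 match began 66 bases before the start in Mmp13, 87 bases before it in Mmp12 and 71 bases before it in Mmp3. The TATA match began at 47, 39 and 32 bases before the start in the same order. Mmp28 held 4 GC boxes, at 120, 80, 59 and 49 bases before the start, with neither other motif in this window. Mmp15, the fifth, held 1 GC box. Of 33469 rat promoter windows of this length, 6.34% held the AP-1 letters, 12.9% the TATA letters and 30.5% the GC box. G and C made up 44.4% of the bases for Mmp13, 45.6% for Mmp12 and 38.8% for Mmp3, and 63.6% for Mmp28. A match describes the letters, and no binding was measured. Mmp13, Mmp12 and Mmp3 stand with Mmp7 in a run of 10 neighbouring Mmp genes in the RefSeq gene order. The 4 genes of this run that were tested all had positive log2 fold changes, as did 51.6% of all tested genes, and none passed the test. Of the run's genes below the filter, Mmp27 stood lower in BAPN (0.161 to 1.14 CPM) than in Vehicle (1.12 to 2.74 CPM). The ranges of Mmp8 and Mmp10 overlapped widely.

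The libraries held 45039451 to 52241007 counted reads in the BAPN group and 19548203 to 22442050 in the Vehicle group, so depth separated the groups completely and its part cannot be told apart from that of the treatment by the design. With all libraries thinned to the smallest total, the same 3 members passed the test as with all reads (FDR 0.0432 for Mmp14, 0.0316 for Mmp17 and 0.0159 for Mmp28). Mitochondrial transcripts made up 4.62 to 7.80% of reads in the BAPN group and 4.46 to 5.41% in the Vehicle group. Smooth muscle and endothelial markers were detected in every library. Levels are given as CPM, TMM-scaled counts relative to the library total, with the mean ± SD of 4 rats a group. Log2 fold changes are BAPN against Vehicle from edgeR, with the standard error (SE) from limma voom and the false discovery rate (FDR) over all 11682 genes tested.

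Of the 10 members, Mmp28, Mmp17 and Mmp14 fell with BAPN by edgeR at an FDR below 0.05, beside 9.25% of all tested genes called lower and 16.8% called in either direction. No member was called higher: 0 by edgeR beside 7.5% of all tested genes, 0 by DESeq2 beside 12.3%, and 0 by edgeR at an unadjusted p below 0.05 beside 17.4%. DESeq2 called 4 members lower, the same 3 and Mmp15, beside 15.1% of all genes called lower and 27.4% called in either direction. At an unadjusted p below 0.05 edgeR found 4 members lower, beside 18.4% of all tested genes. The log2 fold change was positive for 5 members and negative for 5, with a median of −0.24 beside 0.020 for all tested genes. In 3 members every BAPN rat lay below every Vehicle rat, beside 11.9% of all tested genes, and in 0 members every BAPN rat lay above, beside 12.7%. The groups were thus without overlap in 3 members, beside 24.7% of all tested genes in either direction.

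The calls depended on which rats were fitted, for the members as for all genes. Without BAPN 1, 2, 3 or 4 in turn, edgeR called 1, 2, 1 and 1 members lower, beside 11.4%, 10.5%, 6.38% and 7.33% of all tested genes in either direction. Without Vehicle 1, 2, 3 or 4 it called 0, 4, 1 and 1 members lower, beside 3.4%, 19%, 10.4% and 8.24%. Sex as a covariate left 1 member called beside 7.96% of all genes, the females alone left 0 beside 0.762%, and the replicate number as a block left 1 beside 4.76%.

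**Figure D1:**
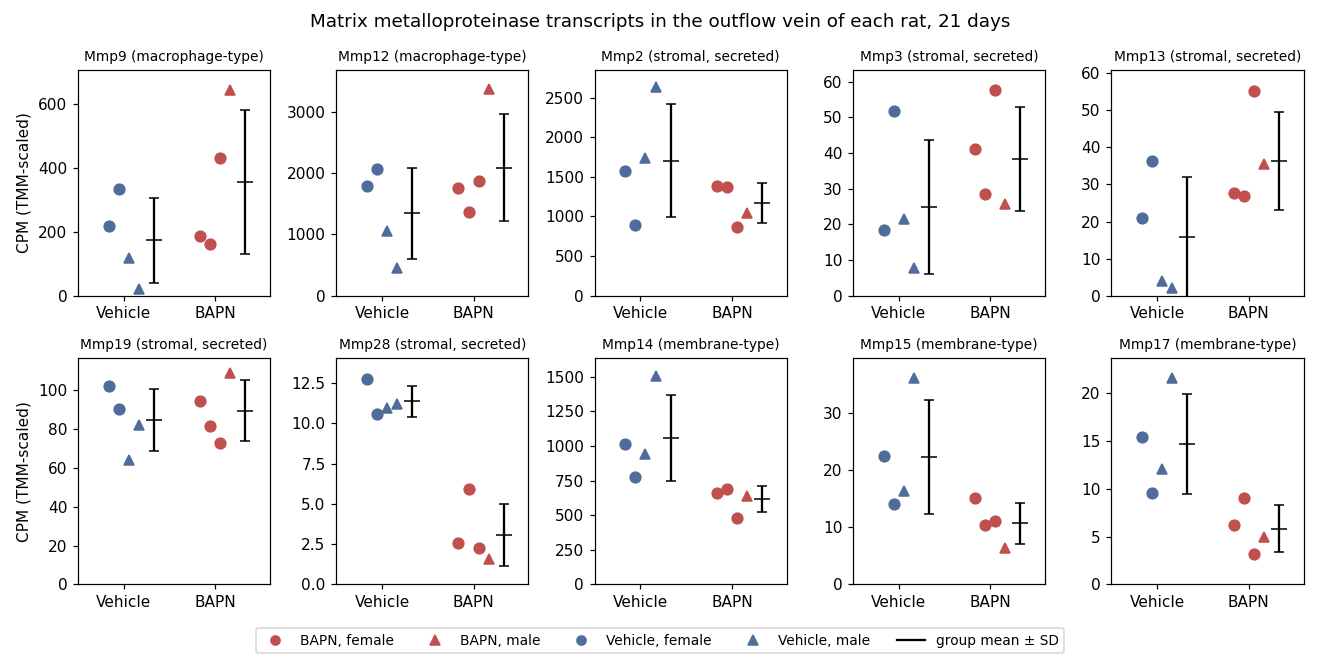
TMM-scaled CPM (vertical axes, linear from 0, scaled per gene) of the 10 members in each of 8 rats, Vehicle in blue and BAPN in red, females as circles and males as triangles, with bars for the group mean ± SD of 4 rats. For Mmp14, Mmp17 and Mmp28 all 4 BAPN points sit below all 4 Vehicle points, and for the other 7 members the groups overlap.

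The membrane-type members had lower means in the BAPN group, and Mmp14 and Mmp17 passed the test. Mmp14 stood at 659, 691, 478 and 639 CPM in BAPN 1 to 4 and at 1016, 778, 939 and 1503 CPM in Vehicle 1 to 4. The highest BAPN rat was below the lowest Vehicle rat, and Vehicle 4 was the highest of all. Mmp14 fell from 1059 ± 312 to 617 ± 94.8 CPM (log2 fold change −0.78, SE 0.22, FDR 0.0432). In bulk tissue, fewer cells of a type and less RNA per cell cannot be told apart, for this gene and for all that follow. The call is close to the threshold. It held without Vehicle 2 (FDR 0.0271) and was lost without BAPN 1 (0.0731), BAPN 2 (0.0641), BAPN 3 (0.109), BAPN 4 (0.0845), Vehicle 1 (0.0928), Vehicle 3 (0.0640) or Vehicle 4 (0.0745), with log2 fold changes between −0.90 and −0.56.

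Mmp17 was measured at 6.20, 8.99, 3.14 and 4.93 CPM in BAPN 1 to 4 and at 15.4, 9.54, 12.1 and 21.6 CPM in Vehicle 1 to 4. The groups did not overlap, although BAPN 2 and Vehicle 2 lay close together. Mmp17 fell from 14.7 ± 5.21 to 5.81 ± 2.46 CPM (log2 fold change −1.33, SE 0.35, FDR 0.0342). The call held without BAPN 2 or Vehicle 2 (FDR 0.0259 for the latter). It was lost without BAPN 1 (0.0618), BAPN 3 (0.0726), BAPN 4 (0.0796), Vehicle 1 (0.0823), Vehicle 3 (0.0540) or Vehicle 4 (0.0757), with log2 fold changes between −1.63 and −1.09 over the 8 fits.

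Mmp15, the third membrane-type member, had 15.1, 10.4, 11.1 and 6.35 CPM in BAPN 1 to 4 and 22.5, 14.0, 16.4 and 36.2 CPM in Vehicle 1 to 4. BAPN 1 lay above Vehicle 2, so the groups overlapped by that pair. The means were 10.7 ± 3.57 and 22.3 ± 9.93 CPM, and the log2 fold change of −1.05 (SE 0.33) missed the threshold with edgeR (FDR 0.0599) and passed it with DESeq2 (FDR 0.0138). Without Vehicle 2 edgeR called it too (FDR 0.0377).

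Mmp28 had the most negative log2 fold change of the members, and 0.574% of all tested genes had a lower one. It stood at 2.55, 5.90, 2.26 and 1.59 CPM in BAPN 1 to 4 and at 12.8, 10.6, 10.9 and 11.2 CPM in Vehicle 1 to 4. The 4 Vehicle rats lay close together (coefficient of variation 8.56%), BAPN 2 was the highest of its group (62.6% within BAPN), and the groups did not overlap. These levels rest on 76 to 299 reads in the BAPN libraries and 214 to 273 in the Vehicle libraries. Mmp28 fell 3.69-fold, from 11.4 ± 0.973 to 3.07 ± 1.93 CPM (log2 fold change −1.88, SE 0.34, FDR 0.0170). Limma voom gave a 95% interval of −2.80 to −1.28. The call held in 7 of 8 fits with 1 rat left out (log2 fold changes from −2.42 to −1.68) and was lost without Vehicle 1 (FDR 0.0527).

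Mmp2, the gelatinase that Mmp14 activates, did not pass the test. It stood at 1385, 1373.5, 865 and 1047 CPM in BAPN 1 to 4 and at 1576, 887, 1731 and 2628 CPM in Vehicle 1 to 4. Vehicle 2 lay within the BAPN range, and the other 3 Vehicle rats lay above every BAPN rat. The means were 1167 ± 255.4 and 1705 ± 716 CPM (log2 fold change −0.55, SE 0.32, FDR 0.235). It was −0.26 without Vehicle 4 and −0.028 in females alone. Its profile over the 8 rats was the nearest to that of Mmp14 among all pairs of members, with a root mean square difference of 0.26 on the log2 scale after centring.

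The macrophage-type members had higher means in the BAPN group, with a spread between rats too wide for a call. Mmp9 stood at 188, 163, 431 and 644 CPM in BAPN 1 to 4 and at 219, 334, 117 and 21.6 CPM in Vehicle 1 to 4. BAPN 3 and BAPN 4 were above every Vehicle rat, BAPN 1 and BAPN 2 lay within the Vehicle range, and Vehicle 4 was the lowest. The means were 357 ± 226 and 173 ± 134 CPM (log2 fold change 1.04, SE 0.88, FDR 0.315). The log2 fold change was 0.58 without BAPN 4, 0.67 without Vehicle 4 and 1.58 without Vehicle 2. Limma voom put the log2 fold change at 1.39 with a 95% interval of −0.58 to 3.36.

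Mmp12 stood at 1752, 1358, 1875 and 3361 CPM in BAPN 1 to 4 and at 1790.1, 2072, 1049 and 444 CPM in Vehicle 1 to 4. BAPN 4 was above all others, Vehicle 3 and Vehicle 4 below all others, and the remaining 5 rats, all female, were mixed. The means were 2087 ± 878 and 1339 ± 736 CPM (log2 fold change 0.64, SE 0.51, FDR 0.334). The log2 fold change was 0.30 without BAPN 4 and 0.35 without Vehicle 4. DESeq2 called neither gene (FDR 0.356 for Mmp9 and 0.270 for Mmp12).

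Mmp13, the collagenase, stood at 27.8, 26.9, 55.3 and 35.4 CPM in BAPN 1 to 4 and at 20.9, 36.4, 3.83 and 2.15 CPM in Vehicle 1 to 4. Both Vehicle males were far below all other rats, while Vehicle 2 lay within the BAPN range. The means were 36.4 ± 13.2 and 15.8 ± 16.1 CPM. The fits differed in size for this gene: edgeR gave a log2 fold change of 1.20 (SE 0.69, FDR 0.264) and limma voom gave 2.00 with a 95% interval of 0.46 to 3.54 (FDR 0.0749). Neither passed the threshold. With edgeR it was 2.02 without Vehicle 2 (FDR 0.0744) and 0.36 in females alone. The difference of mean log2 CPM was 1.95, with p = 0.143 in the exact two-sided permutation test, in which the smallest possible p is 0.0286.

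Mmp3, the stromelysin, stood at 41.2, 28.5, 57.8 and 25.7 CPM in BAPN 1 to 4 and at 18.4, 51.8, 21.4 and 7.74 CPM in Vehicle 1 to 4. Vehicle 2 was second only to BAPN 3, and the other 3 Vehicle rats lay below every BAPN rat. The means were 38.3 ± 14.7 and 24.8 ± 18.9 CPM (log2 fold change 0.62, SE 0.47, FDR 0.385). Without Vehicle 2 the log2 fold change was 1.27 with an FDR of 0.0547, and it was 0.36 without BAPN 3 and 0.33 without Vehicle 4.

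Mmp19 had the smallest ratio of the highest to the lowest rat among the members. It stood at 94.5, 81.6, 72.6 and 109 CPM in BAPN 1 to 4 and at 102, 90.5, 64.3 and 82.1 CPM in Vehicle 1 to 4. The 2 groups were interleaved. The means were 89.3 ± 15.7 and 84.8 ± 16.0 CPM (log2 fold change 0.075, SE 0.17, FDR 0.772), and limma voom's 95% interval ran from −0.31 to 0.47.

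**Figure D2:**
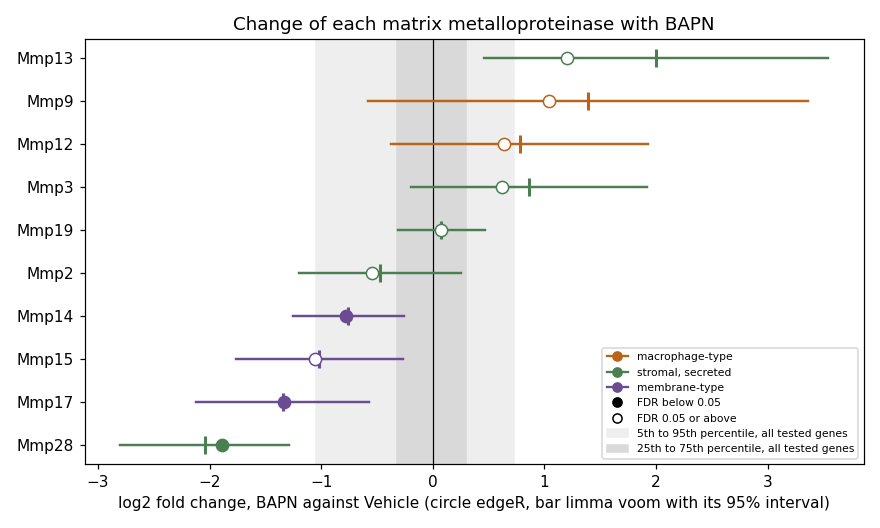
Log2 fold change of each member, BAPN against Vehicle (horizontal axis), with circles for edgeR (filled at an FDR below 0.05), vertical ticks for limma voom and lines for voom's 95% interval, coloured by class. Grey bands give the central ranges of log2 fold changes of all 11682 tested genes, and the 3 membrane-type members lie between −1.33 and −0.78 while the macrophage-type members lie at 0.64 and 1.04.

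By class, the median log2 fold change was 0.84 for the 2 macrophage-type members (0 called), 0.075 for the 5 stromal secreted members (3 positive and 2 negative, 1 called lower) and −1.05 for the 3 membrane-type members (all negative, 2 called lower). The stromal class spanned the whole range, from −1.88 for Mmp28 to 1.20 for Mmp13. Mmp13 and Mmp19 are also made by macrophages. With both moved to that class, its median remained 0.84 over 4 members, all positive, and the median of the 3 stromal members left was −0.55.

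The classes were also contrasted within each rat, as the mean log2 CPM of the macrophage-type members minus that of the membrane-type members. This is a description over members chosen by name and has no test. For BAPN 1 to 4 the contrast was 3.86, 3.55, 5.13 and 5.75, and for Vehicle 1 to 4 it was 3.14, 4.14, 2.61 and −0.11. Vehicle 2 lay among the BAPN rats and Vehicle 4 stood farthest away. Gene lengths were not taken into account, so differences between rats can be read from this contrast and its size within a rat cannot. The group means were 4.57 ± 1.04 and 2.45 ± 1.82, a difference of 2.12 on the log2 scale. It fell to 1.27 without Vehicle 4 and reached 2.69 without Vehicle 2. In the 5 females alone it was 0.53. Against the stromal secreted members the same contrast differed by 1.00 between the groups (3.91 ± 0.857 in BAPN and 2.91 ± 0.924 in Vehicle). It differed by 0.55 without Vehicle 4, by 0.62 without BAPN 4 and by 0.054 in females alone. With Mmp13 and Mmp19 counted as macrophage-type it differed by 1.597.

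Sex was unevenly divided, with 1 male in the BAPN group. In that male Mmp9 stood at 644 CPM and Mmp12 at 3361 CPM, against 21.6 to 117 CPM and 444 to 1049 CPM in the Vehicle males. Among females the ranges met, with Mmp9 at 163 to 431 CPM in BAPN and 219 to 334 CPM in Vehicle, and Mmp12 at 1358 to 1875 CPM and 1790.1 to 2072 CPM. In females alone the log2 fold change was −0.086 for Mmp9 (FDR 0.918) and −0.22 for Mmp12 (FDR 0.578), so the sign of both turned. The test of the difference itself, the interaction of sex and treatment in edgeR, called 0 members and 0 of all 11682 genes (0% called). At an unadjusted p below 0.05 it found 4 members, Mmp9, Mmp12, Mmp13 and Mmp19 (FDR 0.311, 0.240, 0.186 and 0.342), beside 1442 of all genes (12.3%). In each of these 4 the fitted difference between BAPN and Vehicle was more positive in males, where the BAPN side is the 1 rat BAPN 4. Mmp14, Mmp17 and Mmp28 kept negative log2 fold changes in females alone (−0.56, −1.03 and −1.71), with FDR of 0.199, 0.214 and 0.105. With sex as a covariate over all 8 rats, Mmp28 was the 1 member still called, while the log2 fold changes of Mmp14 (−0.69) and Mmp17 (−1.29) stayed near those without it (−0.78 and −1.33).

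**Figure D3:**
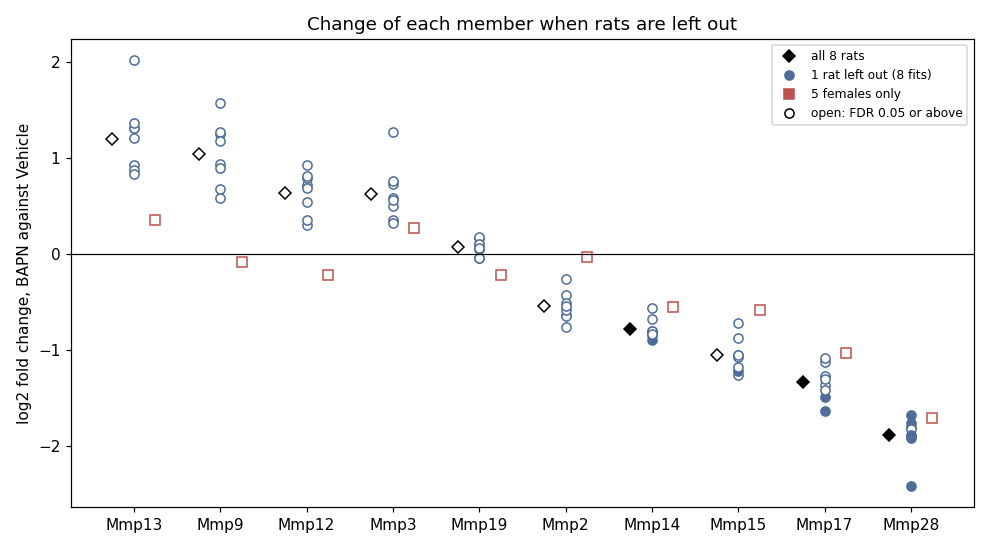
Log2 fold change of each member (vertical axis) with all 8 rats (diamonds), with each rat left out in turn (circles, 8 fits) and with the 5 females alone (squares), filled where the FDR is below 0.05. Mmp28 stays filled in 7 of 8 fits with 1 rat left out, and Mmp9, Mmp12 and Mmp19 lie below 0 in females alone.

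The members differed widely in how much they varied between rats. The ratio of the highest to the lowest of the 8 rats was 29.8 for Mmp9 and 25.7 for Mmp13. It was between 5.70 and 8.06 for Mmp15, Mmp17, Mmp3, Mmp12 and Mmp28, and 3.14 for Mmp14, 3.04 for Mmp2 and 1.69 for Mmp19. Within the Vehicle group the coefficient of variation was 102% for Mmp13, 77.7% for Mmp9, 76.1% for Mmp3 and 55.0% for Mmp12, beside a median of 17.9% over all tested genes. Within the BAPN group it was 36.3%, 63.5%, 38.3% and 42.1% for these 4, beside 15.3%. A few rats marked the ends of most ranges. Vehicle 4 was the lowest of the 8 for Mmp3, Mmp9, Mmp12 and Mmp13 and the highest for Mmp2, Mmp14, Mmp15 and Mmp17. BAPN 3 was the lowest for Mmp2, Mmp14 and Mmp17 and the highest for Mmp3 and Mmp13. BAPN 4 was the lowest for Mmp15 and Mmp28 and the highest for Mmp9, Mmp12 and Mmp19.

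For each member, the tested genes with the nearest profile over the 8 rats were found by the root mean square (RMS) difference of centred log2 CPM. All points share the 8 libraries, and the measure is given as a description. For Mmp12 the nearest were Gpnmb, a glycoprotein of lipid-loaded macrophages (RMS 0.11), and Hk3, a hexokinase of myeloid cells (0.15), where the RMS of Mmp12 about its own mean was 0.80. Mmp14 was nearest to Myo6, an unconventional myosin (0.080), and Loxl1, a member of the lysyl oxidase family (0.089), with an RMS of its own of 0.47. Mmp2 was nearest to Rcn3 (0.083) and Evc2 (0.10). Mmp15 was nearest to Sox7 (0.16) and Epas1 (0.19), both transcription factors of endothelial cells among others, and Mmp17 to Rbms3 and Fads2 (0.12 each). Mmp28 was nearest to Sgca, a sarcoglycan of muscle (0.18), and Alpl, an alkaline phosphatase (0.24), beside 1.13 of its own. The nearest to Mmp19 was Spart (0.066, beside 0.24 of its own). Mmp3 was nearest to Igsf23 (0.24) and Ramp3 (0.28), beside 0.87 of its own. For Mmp9 they were Psca (0.32) and Cela1 (0.37), beside 1.39, and for Mmp13 Angptl8 (0.47) and Cryaa (0.64), beside 1.56. These differences are not scaled to a member's own RMS, so they do not rank the members.

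Markers of several cell types moved with the groups, and their part in the members' differences was not tested. The counts called stand beside 7.5% of all tested genes called higher and 9.25% called lower by edgeR. By DESeq2 the shares were 12.3% and 15.1%, and those of the other fits are given above. Of 14 tested macrophage markers 13 had positive log2 fold changes and 2 rose, Aif1 (0.80, SE 0.16, FDR 0.0155) and Fcgr1a (0.80, SE 0.25, FDR 0.0474). DESeq2 called 5 higher. The Aif1 call was lost without Vehicle 1 (FDR 0.0525), and Fcgr1a was called without Vehicle 2 and in no other such fit (FDR up to 0.113). With sex as a covariate Aif1 held (FDR 0.0363) and Fcgr1a did not (0.0814), and in females alone neither did. Marco, the remaining marker of 15, had no count in any rat. The summed CPM of the list was 33430 to 49393 in BAPN and 7208 to 29448 in Vehicle without overlap. Lyz2 made up 53.6 to 81.5% of that sum, and without Lyz2 the ranges were 7522 to 14420 and 3347 to 9965, which overlapped. Mmp12 amounted to 4.94 ± 1.41% of the full sum in BAPN and 6.60 ± 1.48% in Vehicle. Without Lyz2 the order of the means turned, with 18.1 to 23.3% in BAPN and 13.3 to 21.0% in Vehicle. Both ratios overlapped between the groups. Gpnmb alone made up 43.9 to 67.8% of the sum without Lyz2. Mmp12 amounted to 32.9 to 39.6% and 30.2 to 34.6% of the level of Gpnmb, a narrow range that follows from Gpnmb being the gene nearest to Mmp12 in profile. Of 3 tested neutrophil markers none was called by edgeR or DESeq2 or had an unadjusted p below 0.05 (0 each). The 2 highest by level, Csf3r and S100a9, had log2 fold changes of 0.25 (FDR 0.637) and 0.27 (FDR 0.791). The third, Retnlg, had −1.18 (FDR 0.205). The sum of all 10 was 29.6 to 69.6 CPM in BAPN and 28.3 to 64.3 CPM in Vehicle.

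Of 10 smooth muscle markers 7 fell and all 10 were negative, among them Synpo2 (−2.21, SE 0.33, FDR 0.0095), Lmod1 (−1.30, SE 0.22, FDR 0.0124), Myh11 (−1.60, SE 0.29, FDR 0.0148) and Mylk (−1.20, SE 0.27, FDR 0.0247). DESeq2 called 7 lower too. Of all tested genes 9.25% were called lower by edgeR and 15.1% by DESeq2, which applies to the endothelial and fibroblast counts below as well. Synpo2, Lmod1 and Myh11 held in all 8 fits with 1 rat left out. They were the 3 of the 7 that held without BAPN 3, BAPN 4 or Vehicle 3. The number held was 4 without BAPN 1 or Vehicle 4, 5 without Vehicle 1, and 7 without BAPN 2 or Vehicle 2. With sex as a covariate the same 3 held, and in females alone none (0 of 7). Their sum was 1785 to 4539 CPM in BAPN and 3652 to 6561 CPM in Vehicle. Mmp28 amounted to 0.550 to 0.862% of the level of Myh11 in BAPN and to 0.711 to 1.26% in Vehicle, which overlapped. Against the sum of all 10 markers it was 0.0868 to 0.130% in BAPN and 0.170 to 0.350% in Vehicle, which did not. Of 9 tested endothelial markers 4 fell (6 with DESeq2) and all were negative. Of these 4, 1 held without BAPN 3, BAPN 4 or Vehicle 1, 2 without BAPN 2 or Vehicle 4, 3 without BAPN 1 or Vehicle 3 or with sex as a covariate, 4 without Vehicle 2, and 0 in females alone. Of 11 fibroblast markers none was called by edgeR and 5 were called lower by DESeq2, and the 2 with the highest levels, Col3a1 and Col1a1, had log2 fold changes of −0.84 (FDR 0.119) and −1.002 (FDR 0.118). The fibroblast sum was 25921 to 41268 CPM in BAPN and 30357 to 100523 CPM in Vehicle, with the highest value in Vehicle 4. Mmp14 amounted to 1.67 to 2.01% of it in BAPN and 1.495 to 2.56% in Vehicle, which overlapped. Mmp17 amounted to 0.0121 to 0.0218% and 0.0203 to 0.0314%, which overlapped as well. Mmp2 amounted to 3.30 to 3.54% in BAPN and 2.61 to 3.18% in Vehicle, without overlap and with the higher values in BAPN. Col1a1 and Col3a1 made up most of the fibroblast sum in every rat, for example 48902 and 39548 of 100523 CPM in Vehicle 4. These ratios are therefore largely ratios to 2 collagen genes, and ratios to the other fibroblast markers were not computed.

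**Figure D4:**
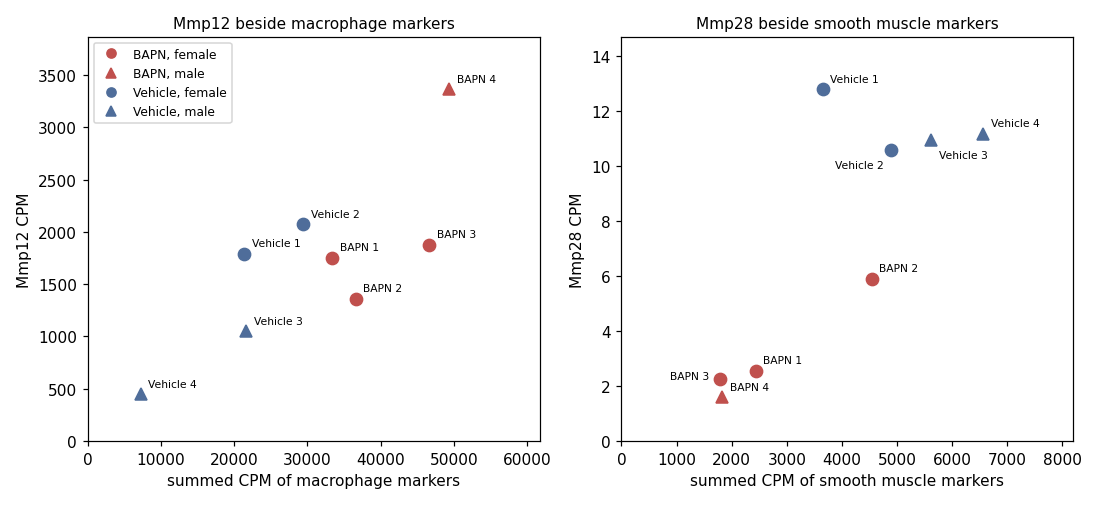
Left, Mmp12 CPM against the summed CPM of the macrophage markers. Right, Mmp28 CPM against the summed CPM of the smooth muscle markers, each point 1 rat (Vehicle blue, BAPN red, circles female, triangles male). Vehicle 4 is lowest on both axes at left (7208 and 444 CPM), and at right BAPN 2 (4539 CPM of markers) lies above Vehicle 1 (3652) on the marker axis and below it on the Mmp28 axis.

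Among the inhibitors 6 of 9 were tested, 2 fell and none rose by edgeR, while DESeq2 called 4 lower and 1 higher. Of all tested genes, edgeR called 9.25% lower and 7.5% higher, and DESeq2 15.1% and 12.3%. Reck, a membrane-anchored inhibitor of Mmp2, Mmp9 and Mmp14, stood at 41.0, 56.1, 35.3 and 40.0 CPM in BAPN 1 to 4 and at 109.8, 66.8, 58.4 and 96.5 CPM in Vehicle 1 to 4. The groups did not overlap. Reck fell from 82.9 ± 24.3 to 43.1 ± 9.03 CPM (log2 fold change −0.94, SE 0.22, FDR 0.0252), held without BAPN 2, Vehicle 2 or Vehicle 3, and was lost in the other 5 such fits (FDR up to 0.0703, without BAPN 3). Spock2, a testican, fell from 5.75 ± 1.41 to 1.21 ± 0.462 CPM (−2.24, SE 0.36, FDR 0.0096) and held in all 8 such fits.

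The Timps did not pass the test with edgeR. Timp1, the inducible inhibitor, was the 1 with a positive value: 466, 302, 333 and 226 CPM in BAPN 1 to 4 and 240.4, 202, 132 and 243 CPM in Vehicle 1 to 4. BAPN 4 lay within the Vehicle range and the other 3 BAPN rats above it (0.70, SE 0.26, FDR 0.0839, and 0.0385 with DESeq2). Timp2, which takes part in the activation of pro-Mmp2 by Mmp14, had 721 ± 74.2 CPM in BAPN and 1031 ± 223 CPM in Vehicle (−0.52, SE 0.18, FDR 0.0746). Timp3, which binds to the matrix, had 194 ± 27.1 and 297 ± 79.9 CPM (−0.62, SE 0.19, FDR 0.0550). Neither of these overlapped between the groups, and both were called by DESeq2. Timp4 had 7.41 ± 4.51 and 12.3 ± 1.95 CPM (−0.73, SE 0.48, FDR 0.254).

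The other genes of the pathway were read from lists by role. Of 68 tested genes over all lists, the inhibitors included, 6 were called lower and 0 higher by edgeR, beside the shares of all genes given above. At an unadjusted p below 0.05 it found 17 lower and 6 higher, beside 18.4% and 17.4% of all genes, and DESeq2 called 15 lower and 4 higher, beside 15.1% and 12.3%. Of 8 tested activators and regulators of plasmin edgeR called 0. DESeq2, and edgeR at an unadjusted p below 0.05, found 1 higher (Plaur, log2 fold change 0.58) and 1 lower (Pcsk6, −0.90), both named after their values were seen. Serpine2, an inhibitor of plasminogen activators, had a log2 fold change of 0.28 (FDR 0.544). Of 10 tested surface partners Tspan12, a tetraspanin, fell from 40.4 ± 7.74 to 23.9 ± 4.26 CPM (−0.76, FDR 0.0246), a call kept in 3 of 8 fits with 1 rat left out (FDR up to 0.0628, without Vehicle 1). Of 10 tested cytokines and receptors known to induce Mmp genes Il6st, the shared receptor subunit of the interleukin 6 family, fell from 250.02 ± 79.6 to 117 ± 40.2 CPM (−1.10, FDR 0.0336), a call also kept in 3 of 8 (FDR up to 0.0809, without Vehicle 1).

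Of 16 tested transcription factors known to act on Mmp genes, Ets2 fell from 52.6 ± 2.50 to 39.7 ± 3.53 CPM (−0.41, FDR 0.0293) and Cebpb from 64.1 ± 11.3 to 43.4 ± 5.30 CPM (−0.56, FDR 0.0347). With sex as a covariate 2 of the 6 pathway calls held, Reck (FDR 0.0450) and Spock2 (0.0271), and Tspan12 (0.0552), Il6st (0.0704), Ets2 (0.0525) and Cebpb (0.0568) were lost. In females alone 0 of the 6 held. Both transcription factor calls were kept in 2 of 8 fits with 1 rat left out (FDR up to 0.0813 without Vehicle 1, and up to 0.0768 without BAPN 4). Of 15 tested substrates none was called by edgeR and 12 had negative values, with Col3a1 and Col1a1, given above, the 2 highest by level. DESeq2 called 1 substrate higher and 2 lower.

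Of the 11 other genes listed under a name in Mmp, 3 were tested and none was called. Mmp11 and Mmp25 were not analysed here. Mmp7 (matrilysin) stood at 11.2, 5.98, 3.16 and 2.32 CPM in BAPN 1 to 4 and at 1.45, 4.84, 1.47 and 1.67 CPM in Vehicle 1 to 4. Vehicle 2 was the 1 Vehicle rat within the BAPN range (1.26, SE 0.70, FDR 0.152). Mmp23 had 39.3 ± 11.1 and 65.5 ± 31.1 CPM (−0.74, FDR 0.134), and Mmp16, a further membrane-type enzyme, 6.07 ± 2.22 and 9.05 ± 6.10 CPM (−0.57, FDR 0.376). The other 8 were below the filter, 4 of them with under 5 reads in every library.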

How the data were processed

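Libraries were prepared from ribosomal RNA-depleted total RNA of the outflow vein of 8 rats with a stranded kit. The submitters' processing notes name bcl2fastq 2.17, Trim Galore and STAR, and the counting tool, strand setting and genome build were not given in the sources used here. The authors deposited raw counts of reads per Ensembl gene and rat, used as they are, so it is unknown how reads shared by similar or overlapping genes were counted. Groups, replicate numbers and sex came from the sample labels. The members, classes and gene lists were chosen with earlier results of these data known.

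Genes with a mean of at least 100 counts after DESeq2 size factors (DESeq2 1.42.0) were tested, 11682 of 32623. The main test was edgeR 4.0.16 in R 4.3.3 (TMM, quasi-likelihood, treatment as the only term) with Benjamini-Hochberg adjustment across every gene tested and a threshold of 0.05. SE and 95% intervals came from limma 3.58.1 (voom). A prior count of 2 went into log2 CPM. Exact permutation tests were two-sided over 70 arrangements. Counts of 11682 genes were simulated with the real means and depths, and with the spread that the trend over all genes gives at each level. EdgeR recovered 185 of 200 genes changed by 1.5 on the log2 scale, with 5 false calls among the unchanged genes. The spread of single genes was not simulated, so this recovery does not hold for members with a wide spread, such as Mmp9 and Mmp13. Alternatives were DESeq2, other scalings and filters, thinned counts, a block of replicate numbers, a term for sex, the females by themselves, and leaving out each rat. For the class contrasts, leaving out rats and females alone were added after seeing the data. All members and Timps were named. From each other pathway list and the macrophage, neutrophil, fibroblast and smooth muscle lists the up to 4 called genes with the smallest FDR were named, or the 2 with the highest level where none was called. The 2 genes nearest in profile were named for each member. Of the genes chosen by these rules, 2 are not reported here. The p-values measure the spread between these 8 rats. Figures were drawn with matplotlib 3.10.9.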

Additional observations from a re-analysis of the deposited data

Results flagged for a closer look

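In 36 groups of 4 rats (18 genes named Mmp, Timp or Reck, in each treatment group), 2 held a rat far from the other 3 by Dixon's test, beside 1.8 that chance gives at 5%. In Vehicle 2 the level of Mmp7 was 4.84 CPM, where the remaining Vehicle rats had 1.45 to 1.67 CPM, with a gap of 0.935 of the group's range. In Vehicle 1 the level of Timp3 was 416 CPM, where the remaining Vehicle rats had 249 to 273 CPM, with a gap of 0.859 of the range. None of the 10 members was among them.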

How the results depend on the processing

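Over the 10 members and their 18 alternatives each, the log2 fold change kept its direction and its side of the threshold in 150 cases, lost a call in 23, gained one in 2 and turned its sign in 5. The 3 members called lower were 1 with sex as a covariate, 0 in females alone and 0 to 4 with each rat left out in turn (0 without Vehicle 1, 4 without Vehicle 2). DESeq2 called 4, and no alternative called a member higher. The signs that turned were those of Mmp9 (−0.086), Mmp12 (−0.22) and Mmp19 (−0.22) in females alone, and of Mmp19 without BAPN 4 (−0.041) or without Vehicle 3 (−0.037), where leaving out each rat gave −0.041 to 0.18. The Mmp14 call was also lost with edgeR's own filter on low counts (FDR 0.0515) and with no filter (FDR 0.0649), where 14732 and 20421 genes were tested. Macrophage-type minus stromal members differed between the groups by 0.054, and macrophage-type minus membrane-type members by 0.53, in females alone. The 6 pathway genes called lower were 15 with DESeq2 and 1 to 10 with each rat left out. The 0 called higher were 4 with DESeq2 and 0 to 2 with each rat left out. The cause of these changes was not tested, beside the smaller number of rats. With the replicate number as a block, 1 member (Mmp28) was called lower, and 556 of all genes beside 1957 without it. Same-numbered rats did not consistently deviate together, with correlations of −0.26 to 0.27 in 4 pairs, 1 of them over 0.1. Of 8 libraries, 3 correlated best with their own number. These correlations cannot exclude a pairing, and the sources used here do not state one. The lowest counts behind a member's value were 45 reads for Mmp13, 76 for Mmp28 and 136 for Mmp17 in 1 library.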

Other observations

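Of the 8 Mmp genes below the filter, 4 had some reads in every library and are given as values. Mmp10 (stromelysin 2) stood at 4.17, 1.72, 3.09 and 1.88 CPM in BAPN 1 to 4 and at 2.39, 4.70, 0.168 and 1.10 CPM in Vehicle 1 to 4. Its lowest values were in the Vehicle males, where Mmp13 was lowest too. Mmp8, the neutrophil collagenase, stood at 0.564 to 2.03 CPM in BAPN and 0.297 to 2.40 CPM in Vehicle. Mmp27 stood at 0.161 to 1.14 CPM and 1.12 to 2.74 CPM, and Mmp24, a membrane-type enzyme, at 0.477 to 0.946 CPM and 0.0494 to 2.20 CPM. Mmp1 and Mmp21 had no read in any library, and Mmp20 and Mmp1b had at most 3 reads in 1 library each.

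Markers of other cells were also counted, as values with no explanation. Beside them, edgeR called 7.5% of all tested genes higher and 9.25% lower, and DESeq2 12.3% and 15.1%. Of 8 tested T cell markers, Cd2 (log2 fold change 1.38, FDR 0.0138) and Cd8a (1.33, FDR 0.0281) rose, and DESeq2 called 4 higher. Cd2 held in all 8 fits with 1 rat left out, and Cd8a was lost without BAPN 1, BAPN 2, BAPN 3 or Vehicle 4 and with sex as a covariate. Neither held in females alone. The 1 tested B cell marker, Cd79b, rose (2.55, SE 1.31, FDR 0.0458) and held without BAPN 4 or Vehicle 3 and in no other fit with 1 rat left out. In females alone Cd79b held, and with sex as a covariate it did not. Of 6 tested adipocyte markers 5 were negative and Plin1 fell (−2.13, SE 0.74, FDR 0.0443), with DESeq2 calling 4 lower. Plin1 held without Vehicle 4 and in no other fit with 1 rat left out, and its groups overlapped. With sex as a covariate and in females alone Plin1 held too, beside 7.96% and 0.762% of all tested genes called. Fabp4, the highest of the 6 by level, had 0.70 (FDR 0.269), and the summed list stood at 1774 ± 843 CPM in BAPN and 1219 ± 530 CPM in Vehicle. Of 6 tested osteoclast markers none was called by edgeR, and Ctsk (cathepsin K, a collagenolytic protease) had 0.94 (SE 0.33, FDR 0.0868) and Acp5 0.83 (SE 0.27, FDR 0.0584). Of the 6, 4 were positive and 2 negative (Nfatc1 −0.30, FDR 0.0835, and Ocstamp −0.12, FDR 0.865), and DESeq2 called 2 higher and 1 lower. These genes were chosen after their values were seen.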
